A study of Mus musculus with 16 samples.

Results

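The genes described here are 8 inhibitory receptors of T cells (Pdcd1, Ctla4, Lag3, Havcr2, Tigit, Btla, Cd160 and Vsir) and Cd274, which encodes PD-L1, a ligand of PD-1. They were taken by gene symbol from the platform annotation, and all 9 were measured, each by 1 probe set, among 19938 genes in all. The cells were 2 CD8 T cell clones of the mouse, both activated with immobilized anti-CD3 antibody (145-2c11). The unconventional clone is labelled cyclosporine-resistant and the conventional clone cyclosporine-sensitive. The 4 groups were the unconventional clone with cyclosporine A at 1 ug per ml, the unconventional clone with anti-CD3 alone, the conventional clone with cyclosporine A at 1 ug per ml, and the conventional clone with anti-CD3 alone, with 4 arrays in each and 16 arrays in all. Before activation both clones had been grown in a medium with interleukins, TNF and interferons, which was absent during it. Each kind of T cell stands for 1 clone, so a difference between the clones cannot be told apart from a difference between any 2 clones. Unstimulated cells were not analysed here, and the strain and age of the animals are not given in the labels. The labels do not say whether the 4 replicates of a group were separate cultures. The p-values therefore cover only the spread among these samples, and that spread may be technical.

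Inhibitory receptors appear on T cells after activation and limit signals from the T cell receptor and from CD28. PD-1 and BTLA do so by recruiting tyrosine phosphatases to their cytoplasmic tails, CTLA-4 by taking the ligands CD80 and CD86 from CD28, and TIGIT by binding PVR, which the activating receptor CD226 also binds. LAG-3 binds MHC class II, TIM-3 (Havcr2) binds galectin-9 and CEACAM1, CD160 and BTLA both bind HVEM (Tnfrsf14), and VISTA (Vsir) is best known on myeloid cells and resting T cells. Cyclosporine A, bound to cyclophilin A, inhibits the phosphatase calcineurin and so keeps NFAT transcription factors out of the nucleus, and NFAT is known to take part in switching on several of these receptor genes.

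Values are log2 expression per probe set, and a difference of 1 is a 2-fold change. Levels are given per array or as mean ± SD with n = 4, and changes as differences of log2 means with their standard error (SE) from a limma model over all genes, with p-values adjusted by the Benjamini-Hochberg method. Genes with an adjusted p under 0.05 were called. The median of all probe sets on an array lay between 5.16 and 5.35, and values below that are near background, where the RMA normalization used upstream compresses differences. In these bulk cultures fewer cells expressing a gene and less RNA per cell cannot be told apart.

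The T cell identity of the samples was visible in the markers. Group means lay between 10.52 and 12.74 for Cd3e, Cd3d and Cd3g, and between 8.56 and 12.50 for Cd8a and Cd8b1. Cd2 (3.99 to 4.25) and Cd5 (4.83 to 5.12) were below the array medians in every group. Cd4 (4.21 to 4.32) and Foxp3 (4.83 to 4.91), which mark helper and regulatory T cells, were also below them, and the group means of 8 B cell markers ran from 3.09 to 5.16. The other CD4 and regulatory T cell markers were mixed, with Cd40lg at 3.13 to 3.40 and Zbtb7b (up to 7.07) and Ikzf2 (5.62 to 6.77) above the array medians in every group. With the drug Zbtb7b rose by 0.53 in the unconventional and 0.47 in the conventional clone, and Ikzf2 rose by 0.46 in the unconventional clone. With the drug Cd8a changed by -1.75 in the unconventional and -0.58 in the conventional clone, while Cd8b1 was not called in either. Among 11 epithelial and fibroblast markers, Cdh1, which encodes E-cadherin, rose by 2.10 in the unconventional clone. Lum, a matrix proteoglycan gene, changed by -2.14 and -5.71. Both are named after their values were seen, and the other 9 changed by at most 0.34 in either clone.

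Cyclosporine A changed most of the 9 genes in both clones, and it moved them in both directions. In the unconventional clone 2 of the 9 rose and 5 fell, so 7 were called, against a background of 24.9% of all genes called in that comparison (12.6% higher and 12.3% lower). With median centring of the arrays that split over all genes was 1842 higher and 2751 lower, beside 2518 and 2452. Of the same 9 genes, 3 rose and 3 fell in the conventional clone, against a background of 31.4% (15.9% higher and 15.5% lower). Ctla4, Tigit and Cd274 were called lower in both clones, and 8.46% of all genes were. Vsir and Havcr2 were called higher in both clones, as were 7.81% of all genes. Pdcd1 was called in opposite directions in the clones, as were 1.12% of all genes. The median log2 change of the 9 genes was -0.58 in the unconventional clone and 0.04 in the conventional clone, beside medians over all genes of 0.02 in both. With 9 genes chosen by name, these shares are descriptions and not tests of the group.

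**Figure D1:**
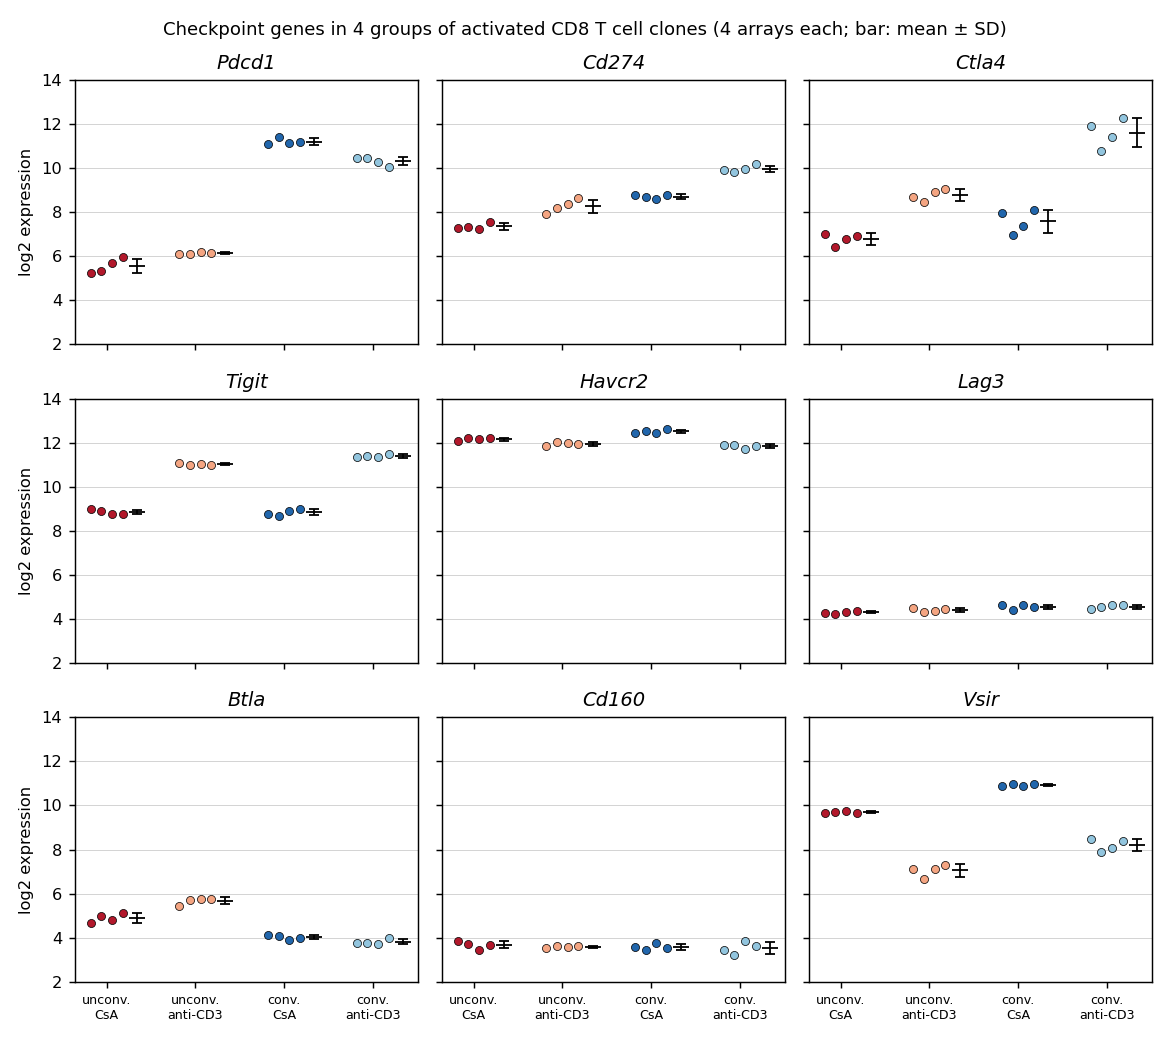
Log2 expression of each of the 9 genes (vertical axis) on the 16 arrays, by group (unconv. and conv. are the unconventional and conventional clone, CsA is cyclosporine A), with a point for each array in order of replicate number and a bar for the mean ± SD. Vsir is higher and Tigit and Ctla4 are lower with cyclosporine A in both clones, and Pdcd1 lies above 10 in the conventional clone and at or below 6.18 in the unconventional clone.

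**Figure D2:**
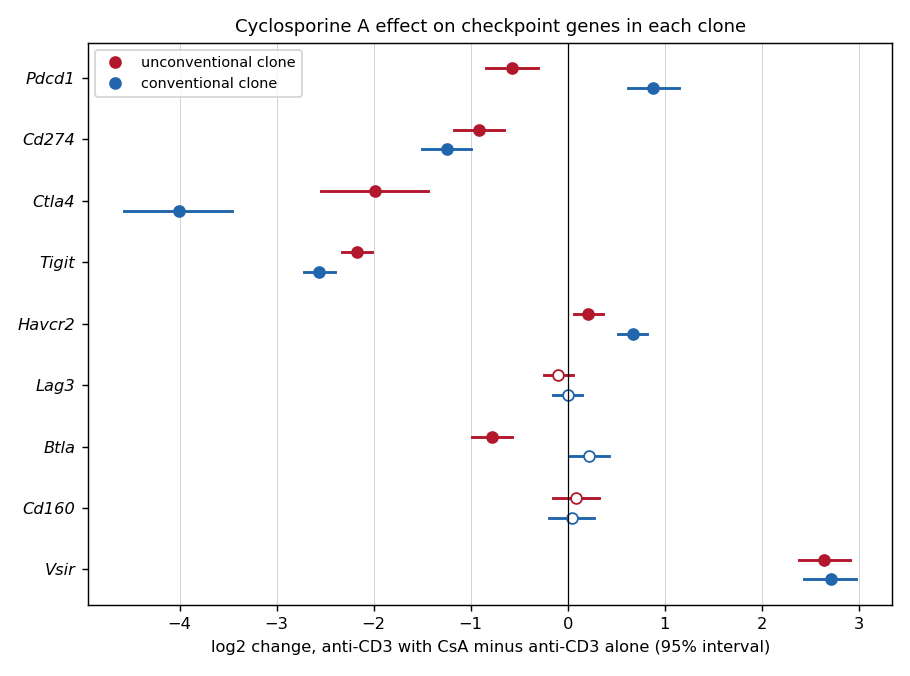
Log2 change with cyclosporine A against anti-CD3 alone (axis) for each gene in the unconventional and the conventional clone, with 95% intervals from limma and open circles where the gene was not called. Pdcd1 and Btla lie on opposite sides of 0 in the clones, with Btla called in the unconventional clone alone.

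The bases upstream of a start site of 4 of these genes are shown because the genes carry the largest responses to the drug (Ctla4, Tigit and Vsir) and the opposite responses of the clones (Pdcd1). Each run is the 250 bases before a start site given by RefSeq, 5′ to 3′ on the strand of the gene, on build GRCm38.p6. For Ctla4, Vsir and Pdcd1 that start is the outer end of the annotated gene, whereas for Tigit it lies 941 bases inside the gene. Capitals mark the letters GGAAA or, for the other strand, TTTCC, the core of the sequence that NFAT binds.
Ctla4, chr1:60908775-60909024, plus strand: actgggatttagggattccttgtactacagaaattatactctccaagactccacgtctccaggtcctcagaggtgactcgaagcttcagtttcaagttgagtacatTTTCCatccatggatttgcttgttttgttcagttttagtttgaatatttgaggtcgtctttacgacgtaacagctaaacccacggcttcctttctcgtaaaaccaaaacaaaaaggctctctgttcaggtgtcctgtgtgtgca
Tigit, chr16:43664185-43664434, minus strand: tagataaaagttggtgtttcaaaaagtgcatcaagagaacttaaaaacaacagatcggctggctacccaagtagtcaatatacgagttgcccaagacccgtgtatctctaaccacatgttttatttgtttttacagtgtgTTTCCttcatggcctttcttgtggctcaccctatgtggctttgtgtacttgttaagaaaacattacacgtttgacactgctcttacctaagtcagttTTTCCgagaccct
Vsir, chr10:60346601-60346850, plus strand: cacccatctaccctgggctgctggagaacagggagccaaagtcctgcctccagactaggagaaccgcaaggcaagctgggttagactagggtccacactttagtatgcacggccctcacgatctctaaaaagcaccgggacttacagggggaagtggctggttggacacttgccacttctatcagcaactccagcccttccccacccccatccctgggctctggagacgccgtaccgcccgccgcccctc
Pdcd1, chr1:94052554-94052803, minus strand: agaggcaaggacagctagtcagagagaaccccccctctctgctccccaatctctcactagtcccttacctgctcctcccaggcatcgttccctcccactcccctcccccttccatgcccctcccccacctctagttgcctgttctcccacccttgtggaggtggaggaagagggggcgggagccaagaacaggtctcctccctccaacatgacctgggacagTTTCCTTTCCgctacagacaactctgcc
The core was found once in the Ctla4 window, 144 bases before the start site, and at 110 and 13 bases before the Tigit start site, within the annotated gene. It stood at 28 and 23 bases before the start site of Pdcd1, as a pair of adjacent copies, and at no place in the Vsir window. The core occurs in 55.6% of the 32851 promoter windows of the same length, so its presence or absence is a description of these letters only. A window was found for 8 of the 9 genes, all except Lag3. The Cd274 window, whose start site lies 5331 bases inside the annotated gene, held the core once, 120 bases before that start. The windows of Havcr2 and of Btla, whose start site lies 632 bases inside the gene, did not hold it. Cd160 had 2 windows, 1 without the core and 1, at a start 14830 bases inside the gene, with it 145 bases before that start. The AP-1 letters TGANTCA, in which N is any base, were searched on both strands and occur in 6.75% of windows. Among the windows of these genes they were found in that of Havcr2 alone, 200 bases before the start site. Neither motif contains the other.

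Ctla4, on chromosome 1 (60909025 to 60915832, GRCm38.p6), encodes the receptor that competes with CD28, and it had the largest fall of the 9 genes in the conventional clone. In the unconventional clone its 4 arrays read 6.99, 6.39, 6.78 and 6.91 with cyclosporine A, against 8.68, 8.43, 8.89 and 9.03 with anti-CD3 alone. The conventional clone read 7.96, 6.97, 7.34 and 8.07 with the drug, against 11.92, 10.77, 11.42 and 12.27 without it. No array with the drug reached the lowest array without it in either clone. Ctla4 fell 3.97-fold in the unconventional clone (log2 change -1.99, SE 0.26, limma adjusted p = 8.2e-06). In the conventional clone it fell 16.2-fold (-4.01, SE 0.26, limma adjusted p = 2.4e-10), the 14th lowest change of all genes. Without the drug Ctla4 was 7.16-fold lower in the unconventional than in the conventional clone (log2 difference -2.84, SE 0.26, limma adjusted p = 2.4e-08). With the drug the clones stood closer, at 6.77 ± 0.27 in the unconventional and 7.58 ± 0.52 in the conventional clone, and their arrays overlapped. That difference, -0.82 (SE 0.26), had a limma adjusted p of 0.0163, and it missed the threshold with an intensity trend and robust moderation (0.0534). It also missed it without the conventional clone's cyclosporine A replicate 1 (-0.69, 0.0590) or 4 (-0.65, 0.0647), or the unconventional clone's cyclosporine A replicate 2 (-0.69, 0.0600). With the replicate number as a block, which takes equal numbers to match across groups, the limma adjusted p of this difference was 1.4e-04 (SE 0.14).

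Tigit, on chromosome 16 (43626137 to 43665125), encodes the receptor for PVR and nectins. Its arrays read 8.99, 8.89, 8.77 and 8.76 in the unconventional clone with cyclosporine A, against 11.07, 10.98, 11.05 and 11.00 with anti-CD3 alone. The arrays of the conventional clone read 8.77, 8.68, 8.91 and 8.99 with the drug, against 11.35, 11.39, 11.34 and 11.49 without it. The arrays with the drug overlapped between the clones, and in each clone they lay below every array without it. Tigit fell 4.51-fold in the unconventional clone (log2 change -2.17, SE 0.08, limma adjusted p = 5.7e-14) and 5.88-fold in the conventional clone (-2.56, SE 0.08, limma adjusted p = 2.4e-15). Among all genes these were the 47th and the 72nd lowest changes. Its level with the drug was 8.85 ± 0.11 in the unconventional and 8.84 ± 0.14 in the conventional clone, a difference of 0.02 with a 95% interval of -0.14 to 0.17 (limma adjusted p = 0.8783). With anti-CD3 alone Tigit was 1.29-fold lower in the unconventional clone (-0.37, SE 0.08, limma adjusted p = 5.4e-04).

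Vsir, on chromosome 10 (60346851 to 60430294), encodes VISTA and had the largest rise of the 9 genes in each clone. In the unconventional clone its arrays read 9.64, 9.69, 9.76 and 9.68 with cyclosporine A, against 7.12, 6.66, 7.12 and 7.31 with anti-CD3 alone. The conventional clone read 10.88, 10.96, 10.87 and 10.97 with the drug, against 8.49, 7.87, 8.08 and 8.40 without it. No 2 of the 4 groups overlapped, and the order ran from the conventional clone with the drug, the highest, through the unconventional clone with it and the conventional clone without it to the unconventional clone without it. The rise was 6.24-fold in the unconventional clone (log2 change 2.64, SE 0.13, limma adjusted p = 6.3e-12) and 6.54-fold in the conventional clone (2.71, SE 0.13, limma adjusted p = 1.7e-12). These were the 9th and the 17th highest changes of all genes. The change in the unconventional clone less that in the conventional clone was -0.07, with a 95% interval of -0.44 to 0.31 (limma adjusted p = 0.8868). Vsir was lower in the unconventional clone both without the drug (2.23-fold, log2 difference -1.16, SE 0.13, limma adjusted p = 2.3e-07) and with it (2.34-fold, -1.23, SE 0.13, limma adjusted p = 7.9e-08).

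Because Vsir and Cd274 are also expressed by macrophages and dendritic cells, the levels of 14 markers of these cells are given beside them. Of the 14, 2 rose with the drug in each clone and none was called lower, where 24.9% of all genes were called in the unconventional and 31.4% in the conventional clone. Itgax (CD11c) rose by 0.76 in the unconventional and 1.33 in the conventional clone, and Cd68, a lysosomal protein, by 0.43 and 0.79. The log2 of the summed unlogged levels of the 14 ran from 10.69 to 10.93 in the unconventional clone with the drug, against 10.06 to 10.36 without it. In the conventional clone it ran from 10.61 to 10.79 with the drug, against 9.65 to 9.79 without it. This sum mostly restates Itgax (10.04 in the unconventional and 10.23 in the conventional clone with the drug) and Cd68 (9.13 and 8.05). Group means of the defining markers Csf1r, Itgam, Adgre1, Lyz2 and Cd14 lay between 3.52 and 4.29, all below the array medians. Without the conventional clone's cyclosporine A replicate 1 the number called in that clone was 4, and without the unconventional clone's anti-CD3 replicate 1 it was 1 in that clone.

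Pdcd1, on chromosome 1 (94038305 to 94052553), encodes PD-1, and it had the largest difference between the clones of the 9 genes. Its arrays read 5.23, 5.32, 5.70 and 5.94 in the unconventional clone with cyclosporine A, against 6.07, 6.11, 6.18 and 6.13 with anti-CD3 alone. The arrays of the conventional clone read 11.08, 11.41, 11.11 and 11.17 with the drug, against 10.47, 10.44, 10.28 and 10.06 without it. Every array with the drug was below every array without it in the unconventional clone, and above every such array in the conventional clone. Pdcd1 fell 1.49-fold in the unconventional clone (log2 change -0.58, SE 0.13, limma adjusted p = 0.0017). It rose 1.84-fold in the conventional clone (0.88, SE 0.13, limma adjusted p = 1.2e-05). With anti-CD3 alone the unconventional clone was 18.2-fold lower than the conventional clone (log2 difference -4.19, SE 0.13, limma adjusted p = 9.8e-16). With the drug it was 50.1-fold lower (-5.65, SE 0.13, limma adjusted p = 7.8e-18), the 15th lowest difference of all genes. The levels of the unconventional clone were near the array medians, so these folds carry the compression of values near background.

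Cd274, on chromosome 19 (29362107 to 29388095), encodes PD-L1, the ligand of PD-1 that activated T cells also make. It read 7.25, 7.31, 7.24 and 7.56 in the unconventional clone with cyclosporine A, against 7.90, 8.16, 8.35 and 8.62 with anti-CD3 alone. The conventional clone read 8.78, 8.70, 8.57 and 8.77 with the drug, against 9.91, 9.81, 9.93 and 10.16 without it. In each clone the arrays with the drug lay below those without it. Cd274 fell 1.89-fold in the unconventional clone (log2 change -0.92, SE 0.12, limma adjusted p = 7.2e-06) and 2.37-fold in the conventional clone (-1.25, SE 0.12, limma adjusted p = 5.6e-08). The unconventional clone was lower by 3.24-fold with anti-CD3 alone (limma adjusted p = 4.3e-10) and by 2.57-fold with the drug (limma adjusted p = 7.8e-09). The unconventional clone without the drug, at 8.26 ± 0.30, overlapped the conventional clone with it, at 8.70 ± 0.10.

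Havcr2, on chromosome 11 (46454931 to 46481255), encodes TIM-3, and its mean over the arrays was brighter than that of 99.1% of genes. Its arrays read 12.05, 12.20, 12.15 and 12.21 in the unconventional clone with cyclosporine A, against 11.83, 12.02, 11.97 and 11.95 with anti-CD3 alone. The conventional clone's arrays read 12.45, 12.52, 12.45 and 12.63 with the drug, against 11.90, 11.91, 11.71 and 11.86 without it. The groups with and without the drug did not overlap in either clone, but the gap in the unconventional clone was narrow. The rise in the conventional clone was 1.59-fold (log2 change 0.67, SE 0.07, limma adjusted p = 1.8e-07). In the unconventional clone it was 1.16-fold (0.21, SE 0.07, limma adjusted p = 0.0320). That call was lost when each array was centred on its median (0.155, adjusted p = 0.2610). It was also lost without that clone's anti-CD3 replicate 1 (0.173, adjusted p = 0.0902) or 4 (0.213, adjusted p = 0.0566), or its cyclosporine A replicate 2 (0.195, adjusted p = 0.0878), 3 (0.211, adjusted p = 0.0604) or 4 (0.19, adjusted p = 0.0938). The difference between the clones without the drug was not called (unconventional less conventional 0.10, 95% interval -0.05 to 0.24, limma adjusted p = 0.2874). With quantile normalization that difference was called (0.166, adjusted p = 0.0466). With the drug Havcr2 was lower in the unconventional clone by 0.36 (log2 difference -0.36, SE 0.07, limma adjusted p = 2.3e-04), and by a smaller amount with quantile normalization (-0.193, adjusted p = 0.0193).

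Btla, on chromosome 16 (45223705 to 45252895), encodes a receptor for HVEM and was the one gene of the 9 that was called higher in the unconventional clone. Its arrays read 4.65, 4.97, 4.79 and 5.14 in that clone with cyclosporine A, against 5.44, 5.72, 5.77 and 5.75 with anti-CD3 alone. The conventional clone's arrays read 4.14, 4.07, 3.91 and 3.99 with the drug, against 3.76, 3.78, 3.72 and 3.98 without it. The drug groups did not overlap in the unconventional clone and overlapped in the conventional clone, where all 8 arrays were below the array medians. Btla fell in the unconventional clone (log2 change -0.78, SE 0.10, limma adjusted p = 6.4e-06). In the conventional clone the log2 change was 0.22, with a 95% interval of 0.01 to 0.43 (limma adjusted p = 0.1137, not called). Btla signal was higher in the unconventional clone by 1.86 log2 units with anti-CD3 alone (SE 0.10, limma adjusted p = 8.2e-12) and by 0.86 with the drug (SE 0.10, limma adjusted p = 5.2e-07). The arrays of the unconventional clone with the drug were below the array medians too, so these are differences of signal near background and no fold of RNA is drawn from them.

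Lag3, the MHC class II receptor on chromosome 6 (124904359 to 124912434), and Cd160, the GPI-anchored HVEM receptor on chromosome 3 (96798763 to 96829351), were near background on every array. Lag3 ran from 4.23 to 4.36 in the unconventional clone with the drug, against 4.31 to 4.51 without it, and from 4.42 to 4.63 in the conventional clone with the drug, against 4.43 to 4.61 without it. Cd160 ran from 3.45 to 3.83 in the unconventional clone with the drug, against 3.54 to 3.61 without it, and from 3.45 to 3.78 in the conventional clone with the drug, against 3.22 to 3.86 without it. Neither was called by limma for the drug in either clone. The 95% intervals of the drug's effect in the unconventional clone were -0.25 to 0.05 for Lag3 and -0.15 to 0.32 for Cd160, and in the conventional clone -0.15 to 0.15 and -0.19 to 0.27. At this signal a change in RNA could not be measured well, and the values do not show that these genes were absent. With cyclosporine A, the Lag3 signal was lower in the unconventional than in the conventional clone (log2 difference -0.25, SE 0.07, limma adjusted p = 0.0066). With quantile normalization the Lag3 difference was smaller (-0.159, adjusted p = 0.0338). Without the drug its difference was -0.15 (adjusted p = 0.1008), which passed the threshold without the conventional clone's anti-CD3 replicate 1 (-0.186, 0.0496) or the unconventional clone's anti-CD3 replicate 1 (-0.184, 0.0468).

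The difference of the drug's effect between the clones was tested directly, as the effect in the unconventional clone less that in the conventional clone. It was called for 5 of the 9 genes, 2 above and 3 below 0, against 16.3% of all genes (8.51% above and 7.78% below). Over all genes 1696 were above and 1551 below 0, and with median centring 1188 and 1569. For Ctla4 it was 2.02 (SE 0.37, limma adjusted p = 5.5e-04), the fall being smaller in the unconventional clone. For Pdcd1 it was -1.46 (SE 0.18, limma adjusted p = 6.3e-06), with effects of opposite sign. For Btla it was -1.0 (SE 0.14, limma adjusted p = 3.6e-05), and for Havcr2 it was -0.46 (SE 0.10, limma adjusted p = 0.0024). For Tigit it was 0.38 (SE 0.11, limma adjusted p = 0.0170), a call that was lost with quantile normalization (0.303, adjusted p = 0.0963) and with median centring (0.332, adjusted p = 0.0611). Cd274 was not called (0.33, 95% interval -0.02 to 0.69, adjusted p = 0.2334), and the value ranged from 0.213 (adjusted p = 0.4411) without the unconventional clone's anti-CD3 replicate 1 to 0.452 (adjusted p = 0.0488) without its replicate 4. The intervals of Lag3 (-0.31 to 0.11) and Cd160 (-0.28 to 0.38) both contained 0. Pdcd1 in the unconventional clone and Btla in all groups were near or below the array medians, and the part of this in the differences was not tested.

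Between the clones, 6 of the 9 genes were called with anti-CD3 alone, 1 higher and 5 lower in the unconventional clone, against a background of 42.0% of all genes (20.3% higher and 21.7% lower). With median centring that split over all genes was 4316 higher and 3025 lower, beside 4048 and 4328. With cyclosporine A, 7 were called, 1 higher and 6 lower, against 44.2% of all genes (21.3% higher and 23.0% lower). Differences of signal of at least 2-fold were seen for 5 genes with anti-CD3 alone (Pdcd1, Ctla4, Cd274, Vsir and Btla), beside 7.74% of all genes. With the drug they were seen for 3 (Pdcd1, Cd274 and Vsir), beside 9.84%. For Btla this is a difference near background, from which no fold of RNA is drawn. The median log2 difference of the 9 genes was -0.37 with anti-CD3 alone and -0.36 with the drug, and the medians over all genes were -0.07 and -0.08. Each comparison between the clones shares its arrays with the drug comparisons above, so the 2 kinds of comparison are not independent.

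**Figure D3:**
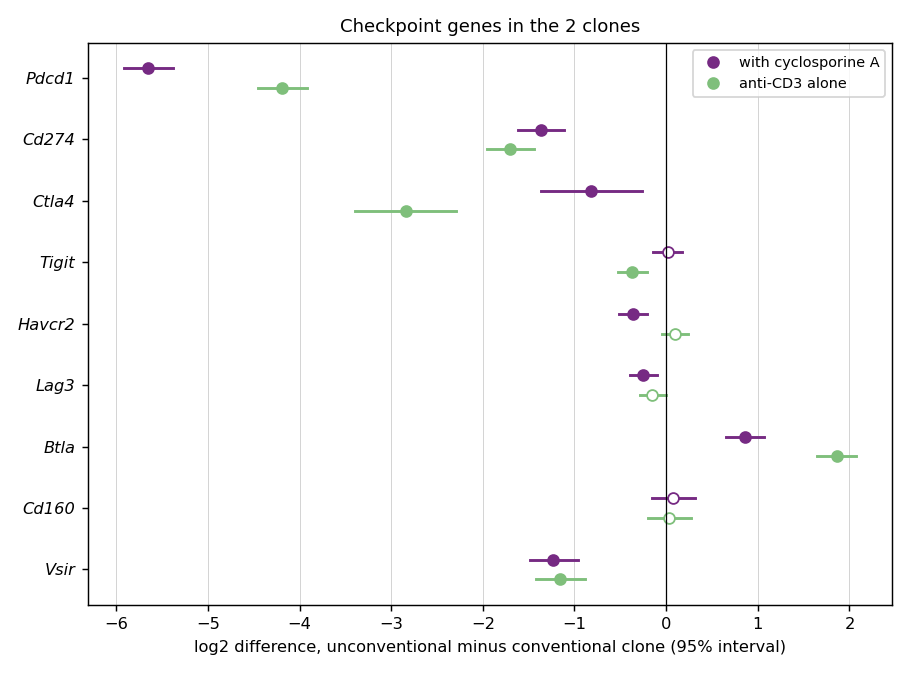
Log2 difference between the unconventional and the conventional clone (axis) for each gene, with cyclosporine A and with anti-CD3 alone, with 95% intervals from limma and open circles where the gene was not called. Pdcd1 stands at -5.65 with the drug and -4.19 without it, lower in the unconventional clone, and Btla is the one gene called higher there.

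Genes whose products bind these receptors moved in both directions. Of 14 ligand genes, 5 rose and 4 fell in the unconventional clone (median change 0.08), and 3 rose and 5 fell in the conventional clone (median -0.13). Over all genes 24.9% and 31.4% were called in these comparisons. Lgals9, which encodes the TIM-3 ligand galectin-9, rose by 1.09 in the unconventional clone (7.81 with the drug, against 6.72 without it) and by 1.11 in the conventional clone (9.91, against 8.79). Pdcd1lg2, which encodes PD-L2, had changes of -0.95 and -0.63, with limma adjusted p-values of 4.7e-06 and 3.1e-04. Pvr, the TIGIT ligand, changed by -0.69 in the unconventional and -0.61 in the conventional clone (SE 0.10 each). Selplg, which encodes PSGL-1, a ligand of VISTA, rose by 0.52 in the unconventional and 1.46 in the conventional clone. Ceacam1, a TIM-3 ligand, rose by 0.74 in the unconventional clone (limma adjusted p = 0.0290) and changed by -1.75 in the conventional clone (adjusted p = 6.9e-06). The rise was not called with an intensity trend and robust moderation, nor without the unconventional clone's anti-CD3 replicate 2 (0.748), 3 (0.684) or 4 (0.656) or its cyclosporine A replicate 2 (0.731) or 3 (0.693). With anti-CD3 alone, Nectin3, an adhesion molecule of the family that TIGIT binds, was higher in the unconventional clone (1.86). Lgals9 (-2.08), Pdcd1lg2 (-1.11) and the HVEM gene Tnfrsf14 (-0.74) were lower there. In all, 3 ligand genes were higher and 3 lower, beside 42.0% of all genes called. Nectin3 in the conventional clone without the drug (4.67) and Ceacam1 in that clone with it (5.05) were below the array medians.

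Of 7 receptors and ligands in a list named activating partners, 3 rose and 2 fell in the unconventional clone (24.9% of all genes called). In the conventional clone 2 rose and 3 fell (31.4%). The name is that of the list, and whether Cd96 and Cd244a activate or inhibit in these cells was not tested. Cd28, the receptor that CTLA-4 competes with, rose by 1.77 (SE 0.16, limma adjusted p = 4.8e-08) in the unconventional clone. Its level there was 7.10 with the drug against 5.33 without it, the latter near the array medians. In the conventional clone Cd28 rose by 1.73 (SE 0.16, limma adjusted p = 2.5e-08), to 12.14 against 10.41. Cd28 and Ctla4 moved in opposite directions with the drug in each clone. Icos, another member of the CD28 family, changed by -0.60 in the unconventional clone (11.42 with the drug, against 12.02 without it) and by -1.39 in the conventional clone (10.95, against 12.34). Tnfsf14, which encodes LIGHT, a ligand of HVEM, changed by -1.17 in the unconventional and -0.82 in the conventional clone, to levels of 4.34 and 4.63, below the array medians. Cd96, a receptor for PVR, rose by 1.34 in the unconventional clone, as did Cd244a, a receptor for CD48, by 0.66, and neither was called in the conventional clone. Cd226 changed by -0.50 in the conventional clone, between levels below the array medians. Without the drug the unconventional clone was lower in Cd28 (-5.08) and Cd96 (-2.06) and higher in Cd244a (3.04). Cd226 was higher there by 0.35 (adjusted p = 0.0243), a call lost with the groups compared alone (0.0662) and without the conventional clone's anti-CD3 replicate 3 (0.265) or the unconventional clone's anti-CD3 replicate 4 (0.185).

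Of 16 other inhibitory receptors measured, 3 rose and 2 fell in the unconventional clone (24.9% of all genes called), and 2 rose and 1 fell in the conventional clone (31.4%), shares near or below those of all genes. Klrg1, a receptor for cadherins, rose by 0.92 in the unconventional clone (7.45 with the drug, against 6.54 without it) and by 1.86 in the conventional clone (12.45, against 10.59). Lilrb4a changed by -1.47 in the unconventional clone and by -0.85 in the conventional clone, where the arrays overlapped. Entpd1, the ectoenzyme CD39, rose by 1.40 in the unconventional clone. Klrc1, which encodes NKG2A, rose by 0.31 in the conventional clone. Lilrb4a and Klrc1 have near-identical copies in the mouse genome, so their values are uncertain. Pecam1 changed by -0.38 in the unconventional clone with an adjusted p of 0.0486, and this was not called in 10 of 16 fits that left out 1 array, including each of the 8 arrays of that clone (-0.418 to -0.336). The other 2 were the conventional clone's anti-CD3 replicate 3 and cyclosporine A replicate 4. The Pecam1 call was also lost with quantile normalization (-0.355, limma adjusted p = 0.0598). The number called in the unconventional clone was 3 without its anti-CD3 replicate 3 or its cyclosporine A replicate 3. Without the drug Pecam1 (3.44) and Klrc1 (0.45) were higher and Klrg1 (-4.05) and Lilrb4a (-3.60) were lower in the unconventional clone. Lilrb4a in the unconventional clone with the drug (4.08) was below the array medians. Pecam1 in the conventional clone without the drug (5.29) was near them.

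**Figure D4:**
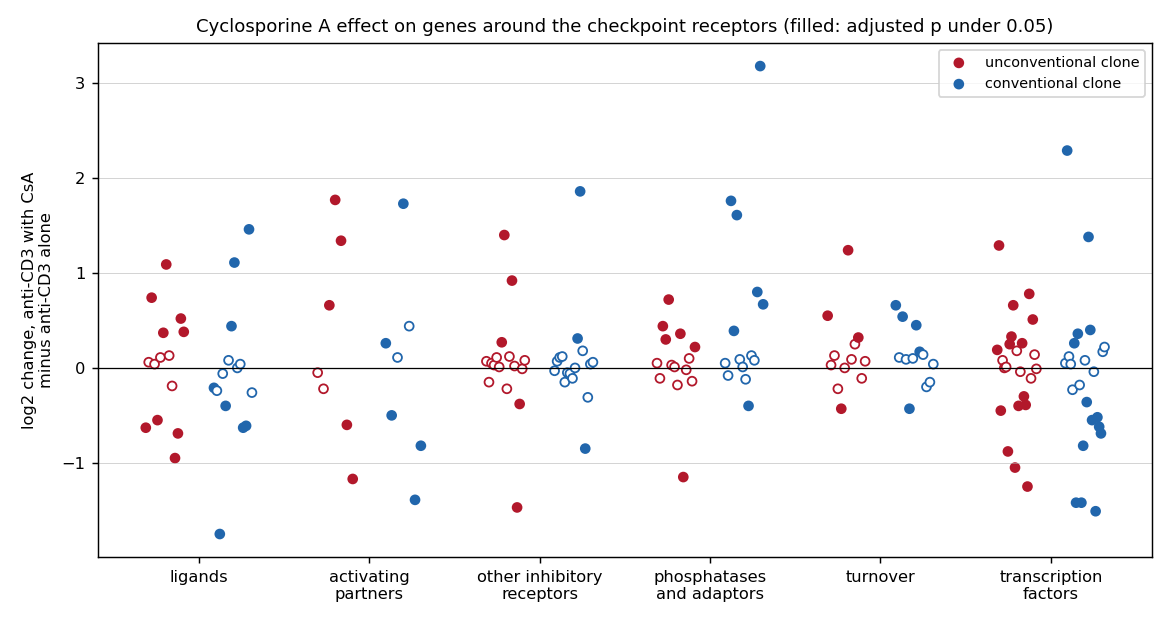
Log2 change with cyclosporine A (vertical axis) of every measured gene of 6 lists around the receptors, in the unconventional and the conventional clone. Each point is a gene, filled where it was called and open where it was not, and points are not labelled by gene. Among the points, those of Cd28 and Lgals9 lie above 0 and those of Pdcd1lg2 and Nr4a3 below 0 in both clones. Those of Ceacam1 lie on opposite sides.

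Of 14 genes that carry the receptors' signals, 5 rose and 1 fell in the unconventional clone (24.9% of all genes called), and 6 rose and 1 fell in the conventional clone (31.4%). Inpp5d, which encodes the lipid phosphatase SHIP-1, rose by 0.72 in the unconventional clone (10.33 with the drug, against 9.61 without it) and by 1.61 in the conventional clone (10.40, against 8.78). Fyn, a Src family kinase, rose by 0.44 and 1.76. Ubash3b, a phosphatase that restrains T cell receptor signals, rose by 3.18 (SE 0.14, limma adjusted p = 6.9e-13) in the conventional clone, where its relative Ubash3a rose by 0.80. Sh2d1a, which encodes the adaptor SAP, changed by -1.15 in the unconventional clone, to a level below the array medians. Ptpn6, which encodes the phosphatase SHP-1, changed in opposite directions in the clones. It rose by 0.36 in the unconventional clone (adjusted p = 0.0314) and changed by -0.40 in the conventional clone (adjusted p = 0.0127), with a called difference of 0.75 (adjusted p = 0.0030). The call in the conventional clone was lost without its anti-CD3 replicate 2 (-0.327) or its cyclosporine A replicate 2 (-0.285). That in the unconventional clone was lost with median centring (0.301) and without the unconventional clone's anti-CD3 replicate 1 (0.333), 2 (0.312) or 3 (0.368) or its cyclosporine A replicate 1 (0.317) or 3 (0.318). With median centring 3 genes of this list were called in the unconventional clone. Without the drug the unconventional clone had higher Sh2d1a (2.03) and Ptpn6 (1.95) and lower Ubash3a (-4.02) and Ubash3b (-1.50). Near background were Sh2d1a in the conventional clone (3.96) and Ubash3a (5.30) and Ubash3b (4.56) in the unconventional clone.

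Of 12 genes for the trafficking and turnover of these receptors, 3 rose and 1 fell in the unconventional clone (24.9% of all genes called), and 4 rose and 1 fell in the conventional clone (31.4%), shares not far from those of all genes. Adam10, a sheddase that cuts LAG-3 and TIM-3, rose by 0.55 and 0.66. Cmtm6, which protects PD-L1 from degradation, changed by -0.43 in both clones. Dennd1b, which takes part in endocytosis, rose by 1.24 in the unconventional and 0.45 in the conventional clone, and Ap2m1, the clathrin adaptor subunit that binds the tail of CTLA-4, rose by 0.54 in the conventional clone. Lrba, which keeps CTLA-4 from lysosomes, rose by 0.32 in the unconventional clone (adjusted p = 0.0185), where the arrays overlapped. That call was lost with median centring (0.268) and without the unconventional clone's anti-CD3 replicate 4 (0.252) or its cyclosporine A replicate 2 (0.303) or 3 (0.259). Without the drug Cmtm4 (0.82), Adam10 (0.54) and Fut8 (0.47), a fucosyltransferase that modifies PD-1, were higher and Dennd1b (-0.36) was lower in the unconventional clone.

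Of 23 transcription factors and chromatin regulators listed as candidate regulators, 8 rose and 7 fell in the unconventional clone (24.9% of all genes called). In the conventional clone 5 rose and 9 fell (31.4%). Whether each acts on the 9 genes in these cells was not tested. Bcl6, a repressor, rose by 1.29 in the unconventional clone, to 6.10 with the drug from 4.81 without it, a level below the array medians. In the conventional clone Bcl6 rose by 2.29 (7.91, against 5.62). Nr4a3, an orphan nuclear receptor gene induced by T cell receptor signals, changed by -1.25 and -1.51, to 7.50 and 8.23 with the drug. Hif1a, the oxygen-sensing factor, changed by -0.88 and -1.42. Irf4, which is induced by the T cell receptor, changed by -1.05 in the unconventional and -0.82 in the conventional clone. Irf1, an interferon-induced factor, changed in opposite directions, by 0.66 in the unconventional clone (adjusted p = 2.1e-05) and by -1.42 in the conventional clone (adjusted p = 2.9e-10), a difference of 2.07 (adjusted p = 1.5e-09). With the mean of its probe sets the Irf1 changes were smaller, at 0.36 and -0.792. Without the drug Tbx21, which encodes T-bet, was lower in the unconventional clone (-2.33, 8.27 against 10.60), as were Nr4a2 (-1.17), Egr2 (-1.16) and Nr4a3 (-0.99). In all, 3 of these 23 genes were higher and 15 were lower in the unconventional clone without the drug, beside 20.3% and 21.7% of all genes.

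The genes whose pattern over the 16 arrays was closest to that of each receptor were found by the root mean square (RMS) difference of log2 values, each gene first centred on its own mean. This is a description over 16 arrays that fall into 4 groups, and it was made for the 7 genes called for the drug in either clone. For Ctla4, whose own values had an RMS of 1.87 about their mean, the closest were Lta, which encodes lymphotoxin alpha (RMS difference 0.51), Ikzf4 (0.60) and Ccl9 (0.64). For Tigit (own RMS 1.19) they were Hemk1 (0.22), Bcl2l1 (0.26), which encodes the survival factor BCL-XL, and Abtb2 (0.30). For Vsir (1.48) they were Herc3 (0.33), Klrd1 (0.34), which encodes CD94, and Tnfsf10 (0.48), which encodes TRAIL. For Pdcd1 (2.49) they were Crmp1 (0.29), Taf9b (0.31) and Adgrg7 (0.39). For Cd274 (0.96) they were Me1 (0.17), Stambpl1 (0.22) and Tnf (0.23), the tumour necrosis factor gene. For Btla (0.75) they were Hdgfl3 (0.18), Rai14 (0.19) and Dhodh (0.21). Havcr2, with an own RMS of 0.27, was closest to Bcl2l13, Srp72 and Atf2, each at 0.08.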

How the data were processed

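RNA from 16 samples was measured on Affymetrix whole-transcript arrays, 4 in each of 4 groups taken from the sample labels. The deposited values are log2 expression per probe set, a scale inferred from their range of 2.08 to 14.55. GCOS, Partek 6.2 and RMA are named in the submitters' processing notes. RMA subtracts background, brings the arrays toward a single distribution and combines probes. Much of a shift common to most transcripts would therefore not be seen. The medians of the deposited arrays still differed, from 5.16 to 5.35. The genome build is not given in the sources used here. The number of arrays limits the precision. Arrays of a group correlated at 0.995 to 0.998 over probe sets, and 0 pairs were identical.

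The table held 28853 probe sets, of which 21789 carried 1 symbol in the platform's annotation, 1621 several and 5443 none here. Entrez IDs of assembly GRCm38.p6 matched 99.58% of those with 1 symbol, and 0 symbols changed. Where a gene had several probe sets (999 genes), that of highest mean was taken, which gave 19938 genes. No filter on dim genes was applied. The 4 group means were fitted by limma 3.58.1 (R 4.3.3, statmod 1.5.0) over the 16 arrays, with empirical Bayes moderation and 12 residual degrees of freedom (median 18.8 after moderation). Tests were two-sided, with Benjamini-Hochberg adjustment over all genes. The fitting steps were tested on simulated data.

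The 9 genes, the 6 lists of companion genes and the marker lists were chosen with earlier results of these data known. Named genes were the 9 in every comparison, up to 4 called genes of each companion list with the largest absolute change for the drug in each clone and for the clones with anti-CD3 alone, and the 3 genes closest in pattern to each of the 9 that was called for the drug. The promoter windows end at start sites given by RefSeq, build GRCm38.p6. The alternatives were quantile normalization, median centring, the brighter part of the genes, the mean of a gene's probe sets, the groups compared alone, the replicate number as a block, an intensity trend with robust moderation, and leaving out each array.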

Additional observations from a re-analysis of the deposited data

Results flagged for a closer look

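The effect of cyclosporine A differed between the clones, by limma's test of the difference, for 5 of the 9 genes. The effect in the unconventional clone less that in the conventional clone was -1.46 for Pdcd1, with changes of -0.58 and 0.88. It was 2.02 for Ctla4, with changes of -1.99 and -4.01. For Btla it was -1.0, with changes of -0.78 and 0.22, the second of which was not called. It was -0.46 for Havcr2, with changes of 0.21 and 0.67, and 0.38 for Tigit, with changes of -2.17 and -2.56.

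One array of Btla stood apart in its group. In the unconventional clone with anti-CD3 alone, replicate 1 read 5.44 and the others 5.72 to 5.77, a gap of 0.863 of the group's range, above Dixon's 95% critical value. Among 36 groups of 4 arrays tested this was the 1 that passed, and chance passes about 1 in 20. Without that array the log2 change of Btla in the unconventional clone was -0.858.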

How the results depend on the processing

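Under 23 other settings, 978 of 1011 recomputed changes of the 9 genes kept their direction and their side of the threshold, 12 lost the call, 4 gained it and 17 changed sign. Each of the 17 belongs to a change that was not called. Many of the 1011 could not change direction, so the share that stayed the same is not a measure of robustness. The log2 change stays as it was when an array outside the comparison is left out. It also stays with the groups compared alone, the replicate block, the intensity trend and the brighter part of the genes. The mean of a gene's probe sets cannot alter it either, since each of the 9 genes has 1 probe set. Leaving out 1 array at a time, the cyclosporine A effect in the conventional clone ran from -0.04 to 0.04 for Lag3 and from -0.069 to 0.142 for Cd160. The difference of effects ran from -0.056 to 0.155 for Cd160, which was -0.001 with median centring, and from -0.199 to 0.047 for Vsir, which was 0.053 with quantile normalization. The difference between the clones ran from -0.073 to 0.139 for Cd160 with anti-CD3 alone, and from -0.037 to 0.066 for Tigit with cyclosporine A, which was -0.035 with quantile normalization. The number of the 9 genes called was 6 in the conventional clone in every setting, 6 or 7 in the unconventional clone, 4 to 6 for the difference of effects, and 5 to 7 for each comparison of the clones. In the unconventional clone 1 rose and 5 fell with median centring, beside 2 and 5. For the difference of effects 1 was higher and 3 lower with quantile normalization or median centring, beside 2 and 3. With anti-CD3 alone 2 were higher and 5 lower in the unconventional clone with quantile normalization, beside 1 and 5. The brighter part of the genes held 6 of the 9, without Lag3, Btla and Cd160.

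Among the companion lists, the activating partners called in the conventional clone numbered 2 over the brighter part of the genes, which held 4 of the 7, beside 5, and the signalling genes called in the unconventional clone numbered 3 with median centring, beside 6. The deviations of arrays from their group means were compared between arrays of the same replicate number in different groups. These deviations correlated at -0.137 to 0.284 over 24 pairs of groups and numbers, 3 of them over 0.1. Between the groups of the unconventional clone all of these correlations were positive, from 0.058 to 0.104. The main model does not pair the arrays by number, and whether the numbers pair them was not settled by these values. By these deviations, 3 of 4 arrays of the unconventional clone with the drug were closest to their own number among those without it. The same count, 3 of 4, was found from the arrays without the drug. In the conventional clone the count was 2 of 4 from the arrays without the drug and 1 of 4 from those with it. Over all ordered pairs of groups it ran from 0 to 3 of 4. With the replicate block the 9 genes called numbered 6 in the conventional clone, 7 in the unconventional clone, 5 for the difference, and 6 and 7 for the clones without and with the drug. Among the 9 genes, dim signal limits Lag3, Cd160 and Btla in all groups, and Pdcd1 in the unconventional clone. Btla was brightest in the unconventional clone with anti-CD3 alone, at 5.44 to 5.77, close above the array medians.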

Other observations

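For Ctla4 the array with replicate number 2 was the lowest in all 4 groups, at 6.39 in the unconventional clone with cyclosporine A and 8.43 without it, and at 6.97 in the conventional clone with it and 10.77 without it. This was noticed after the values were seen. Among all genes, 352 of 19938 (1.77%) had 1 replicate number lowest in all 4 groups, and for 97 of these the number was 2. With the replicate number as a block the SE of the Ctla4 changes was 0.14, beside 0.26 without it.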
